A study of Homo sapiens with 2 samples.

Results

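The genes described are 45 genes of S phase and DNA replication, taken by name from the feature list of 1 single-cell library, out of 36601 genes counted. All 45 names were found, each with 1 matching identifier, and all 45 passed the floor on low values, a mean level of at least 5 CPM (UMIs of a gene scaled to the same total in every class) over the 3 cell classes compared. HES2 is an established line of human embryonic stem cells, and all cells came from 1 HES2 culture put through a differentiation named SANLPC in the labels (sinoatrial node-like pacemaker cells), with no other genotype, treatment or time point. Polyadenylated RNA and the tags of a barcoded CD34 antibody were counted in the same droplets, so the 2 libraries hold the same 14829 barcodes and there is no replicate culture. Filters kept 11211 cells, each with a median of 16607 RNA molecules (unique molecular identifiers, UMIs).

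DNA replication begins when the loader CDC6 places the ring-shaped MCM2 to MCM7 helicase on origins in G1, and MCM10, CDC45 and the GINS complex then turn the loaded ring into an active helicase at the start of S phase. The clamp PCNA, placed by replication factor C, holds the polymerases on the template, while TYMS and ribonucleotide reductase (RRM1 with RRM2) supply building blocks. Many of these genes are switched on together late in G1 by E2F transcription factors, and cardiomyocytes of the developing heart still divide but lose this capacity as they mature.

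The 3 classes were drawn on a few marker genes, none of them an S phase gene. Cardiomyocytes were the 5516 cells with TNNT2, a thin filament protein of heart muscle, at 2000 CPM or more. Fibroblast-like cells were the 617 with TNNT2 under 1000 CPM and the collagen gene COL1A1 at 2000 CPM or more. Epithelial-like cells were the 4046 with TNNT2 and COL1A1 each under 1000 CPM and at least 5 UMIs of VTCN1, GATA3, CLDN4 and WNT6 together, and 1032 cells met no rule. Each list of 10 further markers had its highest sum in the class of its name. The cardiomyocyte list summed to 49960.1 CPM in cardiomyocytes, 3791 CPM in fibroblast-like and 10134 CPM in epithelial-like cells, where TPM1 alone, a tropomyosin gene also used outside muscle, made up 9216 CPM. The fibroblast list summed to 664 CPM in cardiomyocytes, 15732 CPM in fibroblast-like and 4533 CPM in epithelial-like cells, and the epithelial list to 1273 CPM in cardiomyocytes, 1673 CPM in fibroblast-like and 10214 CPM in epithelial-like cells. Of the fibroblast markers LUM went against the label, at 448 CPM in fibroblast-like and 684 CPM in epithelial-like cells. Endothelial and blood markers together stayed under 50 CPM in each class. Cardiomyocytes, fibroblast-like and epithelial-like cells had a median of 16209, 18537 and 17452.5 RNA UMIs, 11.8%, 5.20% and 5.82% mitochondrial UMIs, and 10.3%, 8.43% and 2.05% of cells called as doublets, droplets with more than 1 cell. Cells of 1 culture are not replicates, so no test between classes was possible, and the 95% intervals beside levels, ratios and shares, all exact, hold no more than counting error. Intervals of medians come from ranked members and show the spread between genes.

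To show what the members share outside their counts, the promoter windows of the RefSeq table (build GRCh38.p14, 250 bases before and 50 from each transcription start) were searched on both strands for 4 spellings of an E2F site (TTTCCCGC, TTTCGCGC, TTTGCCGC and TTTGGCGC). Windows were held for 36 of the 45 genes. At least 1 E2F spelling was found in 23 of these 36 genes (63.9%), against 3.99% of all 27305 genes in the table, and in 48.0% of the 50 member windows against 3.31% of all 35116 windows. The windows of all genes were not matched to those of the members in base composition. CCAAT, the letters of an NF-Y site, stood in 70.0% of the member windows and 34.6% of all windows, while TTTGAA, letters of the element found at many mitotic genes, stood in 6.0% of the member windows and 15.2% of all windows. The 13 members with a window and none of the 4 spellings were BLM, CDC45, CHAF1B, FEN1, MCM10, NASP, PRIM1, RAD51AP1, RFC2, RRM1, RRM2, SLBP and USP1. A match is a description of letters and not a shown binding site. Other spellings were not searched, so a window without these 4 may still hold another form of the site. The windows of 5 genes are printed because they stand at the ends of the range of responses described further on: MCM10, DTL and CLSPN were far higher in cells with many MCM transcripts, and SLBP and UBR7 had some of the lowest ratios. They lie at chr10:13161308-13161607 on the plus strand (MCM10), chr1:212035498-212035797 on the plus strand (DTL), chr1:35769929-35770228 on the minus strand (CLSPN), chr4:1712270-1712569 on the minus strand (SLBP) and chr14:93207006-93207305 on the plus strand (UBR7). Capitals mark E2F spellings and CCAAT on either strand (GCGGGAAA and ATTGG are the reverse complements seen here).
MCM10: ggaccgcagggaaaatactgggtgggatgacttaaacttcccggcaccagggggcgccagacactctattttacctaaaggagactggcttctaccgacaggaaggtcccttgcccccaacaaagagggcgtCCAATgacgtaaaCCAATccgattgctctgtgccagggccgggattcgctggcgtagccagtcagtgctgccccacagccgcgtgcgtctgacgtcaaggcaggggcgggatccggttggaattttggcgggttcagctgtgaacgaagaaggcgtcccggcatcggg
DTL: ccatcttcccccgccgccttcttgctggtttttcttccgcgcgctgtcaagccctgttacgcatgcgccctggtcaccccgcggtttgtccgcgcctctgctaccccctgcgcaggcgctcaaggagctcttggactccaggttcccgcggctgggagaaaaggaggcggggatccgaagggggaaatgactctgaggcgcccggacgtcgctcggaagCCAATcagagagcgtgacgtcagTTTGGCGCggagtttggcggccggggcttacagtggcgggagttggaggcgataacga
CLSPN: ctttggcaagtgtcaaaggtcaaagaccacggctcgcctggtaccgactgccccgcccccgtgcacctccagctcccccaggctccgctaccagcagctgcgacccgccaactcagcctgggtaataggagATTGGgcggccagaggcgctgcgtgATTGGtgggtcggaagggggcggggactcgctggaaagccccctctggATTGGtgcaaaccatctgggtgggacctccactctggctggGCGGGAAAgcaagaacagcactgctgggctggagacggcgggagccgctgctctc
SLBP: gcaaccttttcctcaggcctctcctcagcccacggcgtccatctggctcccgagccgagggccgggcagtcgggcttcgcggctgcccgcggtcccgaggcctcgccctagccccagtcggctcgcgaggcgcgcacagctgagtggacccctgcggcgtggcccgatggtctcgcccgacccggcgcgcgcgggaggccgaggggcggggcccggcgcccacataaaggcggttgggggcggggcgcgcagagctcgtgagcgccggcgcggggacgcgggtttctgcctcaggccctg
UBR7: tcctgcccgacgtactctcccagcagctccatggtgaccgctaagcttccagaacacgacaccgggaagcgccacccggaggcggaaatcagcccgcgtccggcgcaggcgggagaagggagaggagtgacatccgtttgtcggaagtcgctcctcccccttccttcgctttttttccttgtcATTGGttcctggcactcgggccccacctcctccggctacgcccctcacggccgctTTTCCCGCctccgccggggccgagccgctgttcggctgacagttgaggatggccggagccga
DTL, CLSPN and UBR7 each hold 1 E2F spelling, so these letters stand both in genes with high ratios and in UBR7, with the lowest in cardiomyocytes. CASP8AP2, also among the lowest ratios in cardiomyocytes (2.52), holds 1 E2F spelling and 2 CCAAT, though its window is not printed. MCM10, with the highest ratio in both classes compared, holds none of the 4 spellings and 2 CCAAT, and SLBP holds neither.

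Transcripts of all 45 genes were present in all 3 classes, and their order was much alike. The summed level was 1762 CPM (1753 to 1771) in cardiomyocytes, 1538 CPM (1515 to 1561) in fibroblast-like cells and 2264 CPM (2253 to 2275) in epithelial-like cells. The library counts 1 UMI for a captured molecule near its 3′ end, so levels of different genes are compared without a length correction. NASP, a histone chaperone, was the highest in each class, at 304, 277 and 359 CPM in cardiomyocytes, fibroblast-like and epithelial-like cells. In cardiomyocytes it was followed by TYMS, which makes thymidylate (121 CPM), MCM3 (103 CPM), PCLAF, a partner of PCNA (86.0 CPM), and MCM4 (80.9 CPM). In fibroblast-like cells PCLAF (83.1 CPM), TYMS (78.3 CPM), SLBP (77.9 CPM) and MCM4 (70.6 CPM) came next, and in epithelial-like cells USP1 (114 CPM), TYMS (107 CPM), PCLAF (102 CPM) and MCM4 (97.4 CPM). The lowest were EXO1 in cardiomyocytes (3.58 CPM), the cyclin gene CCNE2 in fibroblast-like cells (3.80 CPM) and E2F8 in epithelial-like cells (7.69 CPM). Spearman's rho over the 45 levels, given as a description of genes counted in 1 library, was 0.920 between cardiomyocytes and epithelial-like cells, 0.949 between fibroblast-like and epithelial-like cells and 0.939 between cardiomyocytes and fibroblast-like cells.

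**Figure D1:**
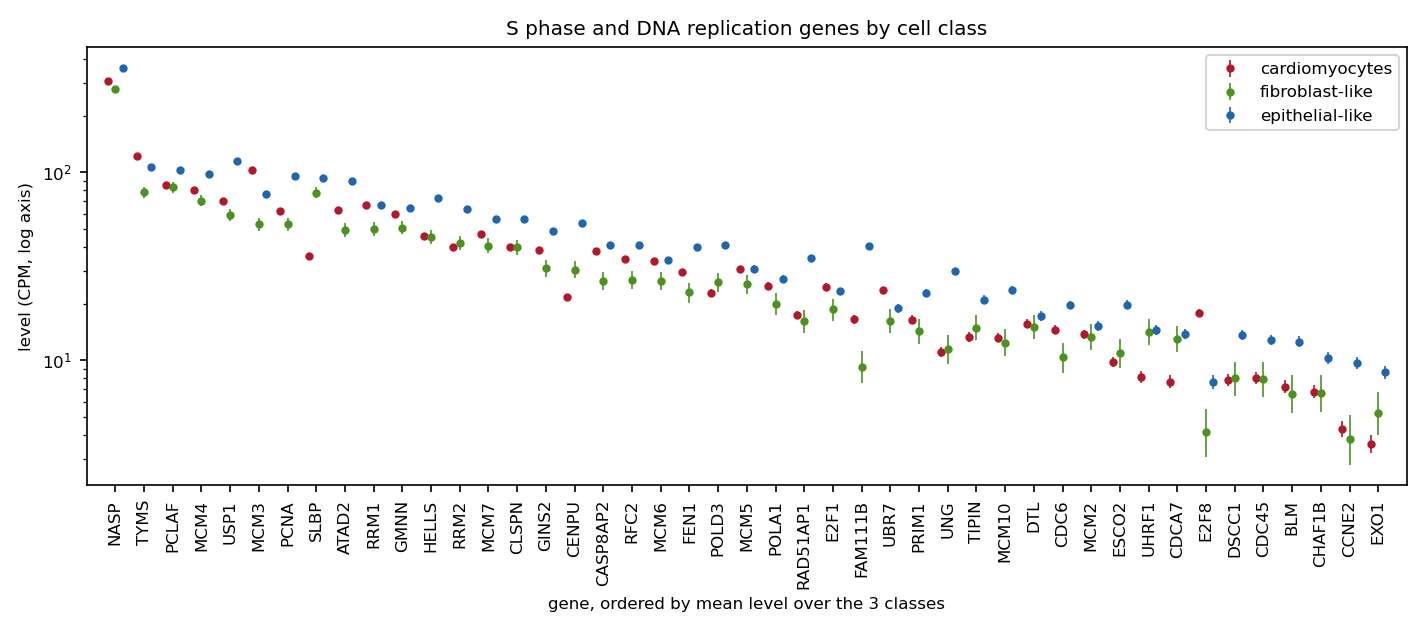
Level of each of the 45 genes in the 3 cell classes (CPM, log axis; points are class sums and bars are exact 95% counting intervals). NASP leads in every class, most genes are highest in epithelial-like cells, and E2F8, MCM3, TYMS, E2F1 and UBR7 are highest in cardiomyocytes.

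At a 1.5-fold limit 21 of the 45 members were lower in cardiomyocytes than in epithelial-like cells, 1 was higher and 23 lay between, where 21.5% of the 11423 genes measured were higher and 26.5% lower. The median log2 ratio was −0.48 (−0.67 to −0.26) for the members and −0.10 for all genes measured, and 40 of the 45 ratios were under 1. The 6 helicase subunits summed to 308 CPM (305 to 312) in cardiomyocytes and 310.2 CPM (306 to 314) in epithelial-like cells, and none passed the limit. MCM3 stood at 103 CPM in cardiomyocytes and 76.7 CPM in epithelial-like cells, a ratio of 1.34 (1.29 to 1.38). MCM5 stood at 30.6 CPM in cardiomyocytes and 30.7 CPM in epithelial-like cells, and MCM6 at 33.7 and 34.2 CPM. MCM2 (0.909), MCM4 (0.831) and MCM7 (0.833) had ratios under 1. The subunits of 1 ring therefore did not differ by 1 common ratio between the classes.

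Among the genes that load or activate the helicase, MCM10 (13.2 CPM in cardiomyocytes and 23.6 CPM in epithelial-like cells, ratio 0.560) and CDC45 (ratio 0.631) were lower. CDC6 (0.738), GINS2 (0.792) and GMNN, geminin, which blocks reloading of the helicase (0.929), lay between. At the fork, 3 of 8 genes were lower: POLD3, a subunit of DNA polymerase delta (0.555), DSCC1, of an alternative clamp loader (0.577), and PCNA, at 62.0 CPM in cardiomyocytes and 95.6 CPM in epithelial-like cells (0.648, 0.626 to 0.672). The primase subunit PRIM1 (0.719), the flap nuclease FEN1 (0.736), RFC2 (0.836), PCLAF (0.841) and the polymerase alpha subunit POLA1 (0.921) lay between. Of the genes for nucleotide supply, RRM2 was lower, at 40.0 CPM in cardiomyocytes and 63.6 CPM in epithelial-like cells (0.628), while its partner RRM1 was level (0.992) and TYMS stood above 1 (1.14).

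Genes of chromatin and of the damage response held most of the lower members. Of the 8 chromatin genes 6 were lower. SLBP, which binds the stem-loop of replication-dependent histone mRNA, stood at 35.8 CPM in cardiomyocytes and 93.2 CPM in epithelial-like cells, a ratio of 0.384 (0.368 to 0.400). CENPU, a centromere protein (0.401), ESCO2, a cohesin acetyltransferase (0.495), UHRF1, which reads hemimethylated DNA (0.561), the remodeller HELLS (0.630) and CHAF1B, of the chromatin assembly factor (0.665), were the others, while ATAD2 (0.701) and NASP (0.847) lay between. Of the 10 genes of the damage response 7 were lower, led by UNG, the uracil-DNA glycosylase, at 11.1 CPM in cardiomyocytes and 29.8 CPM in epithelial-like cells (0.373, 0.346 to 0.402). FAM111B, a protease (0.409), the nuclease EXO1 (0.414), RAD51AP1 (0.50), the helicase BLM (0.577), the deubiquitinase USP1 (0.616) and TIPIN (0.632) followed. The checkpoint mediator CLSPN (0.715), DTL (0.910) and UBR7 (1.24) lay between. Role groups were assigned by choice, with 1 group per gene, and UBR7 could be placed elsewhere.

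Of the 5 regulators, E2F8, a repressor of the E2F family, was the 1 higher member. It stood at 17.8 CPM in cardiomyocytes, 4.14 CPM in fibroblast-like cells and 7.69 CPM in epithelial-like cells, a ratio of 2.32 (2.10 to 2.56) over epithelial-like cells. E2F1, an activator of the same family, was near level, at 24.6 CPM in cardiomyocytes and 23.2 CPM in epithelial-like cells (1.06, 0.994 to 1.13). CCNE2 (0.446) and CDCA7 (0.559) were lower and CASP8AP2 (0.936) lay between. Leaving mitochondrial UMIs out of the totals moved the median log2 ratio of all genes by 0.10 and left 15 members lower, with E2F8 still higher. The share of all genes lower was not counted in that setting.

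Other cell cycle genes were counted the same way. Of 43 measured among 45 other replication genes, 0 were higher and 17 lower, among them LIG1, the ligase that seals Okazaki fragments (0.544), and CCNE1 (0.579). Of 32 G2 and mitosis genes, 0 were higher and 16 lower. Of 14 measured brakes of the cycle and D cyclins, 7 were higher, 1 (CDKN2B, 0.101) was lower and 6 lay between, and 5 of the 14 ratios were under 1. Their median log2 ratio was 0.58 (−0.50 to 1.16), and in fibroblast-like cells 8 of the 14 were higher and 1 lower. The list pools brakes with D cyclins, so its counts and median do not describe brakes alone. The D cyclin CCND1 stood at 61.9 CPM in cardiomyocytes and 4.11 CPM in epithelial-like cells (15.1). The brake CDKN1C, the inhibitor p57, stood at 83.9 and 37.4 CPM (2.24).

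**Figure D2:**
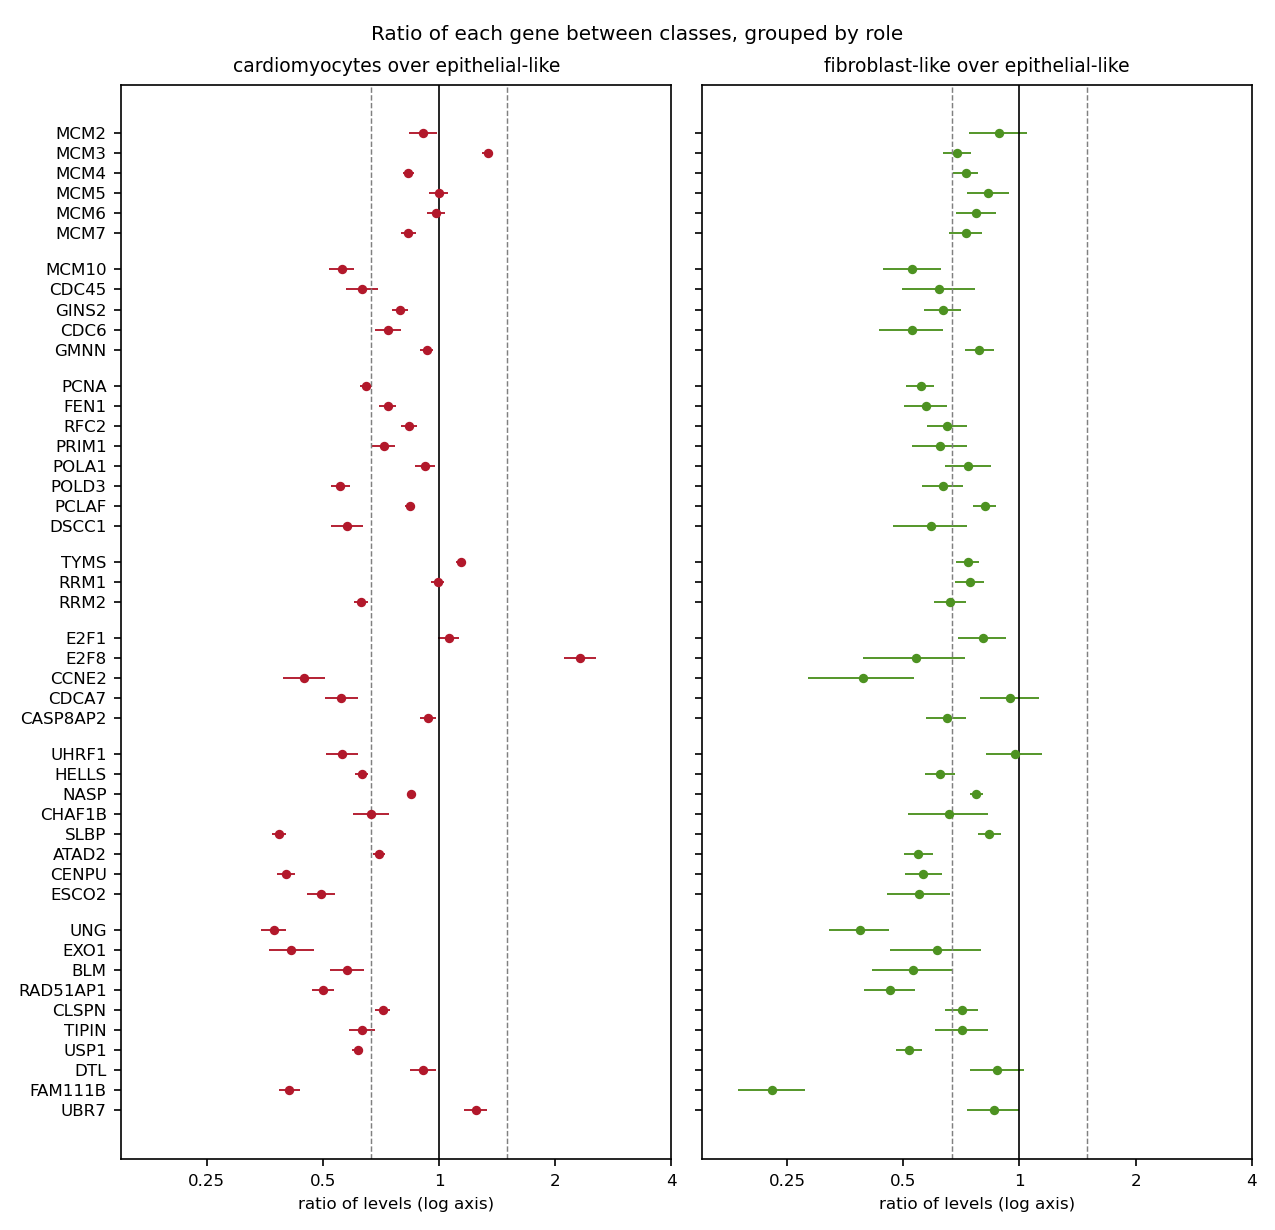
Ratio of each gene's level in cardiomyocytes (left) and fibroblast-like cells (right) over epithelial-like cells, grouped by role (log axis; bars are exact 95% counting intervals, dashed lines the 1.5-fold limits). In cardiomyocytes the MCM genes lie near 1, SLBP and UNG are the lowest and E2F8 is alone above 1.5, while in fibroblast-like cells all 45 points lie under 1.

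In fibroblast-like cells all 45 members were under the level of epithelial-like cells, 25 of them past the limit and 0 higher, against 19.1% lower and 19.0% higher of all genes measured. The median log2 ratio was −0.62 (−0.71 to −0.46), and −0.061 for all genes measured. FAM111B had the lowest ratio, at 9.23 CPM in fibroblast-like cells and 40.4 CPM in epithelial-like cells (0.228, 0.187 to 0.277), followed by UNG (0.385), CCNE2 (0.392), RAD51AP1 (0.462) and USP1 (0.517). The nearest to level were UHRF1 (0.972), CDCA7 (0.944), MCM2 (0.882), DTL (0.877) and UBR7 (0.858). By role, 0 of 6 helicase genes, 4 of 5 loading genes, 6 of 8 fork genes, 1 of 3 nucleotide genes, 3 of 5 regulators, 5 of 8 chromatin genes and 6 of 10 damage genes were lower. Without the upper limit of 35000 UMIs on a cell, 11 members were lower and the median log2 ratio was −0.36. For all genes measured this median was −0.054, and their share lower was not counted in that setting. Summed neural markers, almost all STMN2, stood at 146 CPM in fibroblast-like cells and 0.487 CPM in epithelial-like cells, and their part in the result was not tested.

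Between cardiomyocytes and fibroblast-like cells 38 of 45 members lay within the limit, 4 were higher and 3 lower, where 19.5% of all genes measured were higher and 23.4% lower. The higher ones were E2F8 (4.31, 3.23 to 5.86), MCM3 (1.94), FAM111B (1.79) and TYMS, at 121 CPM in cardiomyocytes and 78.3 CPM in fibroblast-like cells (1.55). The lower ones were SLBP, at 35.8 CPM in cardiomyocytes and 77.9 CPM in fibroblast-like cells (0.459), UHRF1 (0.577) and CDCA7 (0.592). The median log2 ratio was 0.19, and −0.061 for all genes measured. With mitochondrial UMIs left out of the totals 7 members were higher. The median log2 ratio was then 0.29 for the members and 0.049 for all genes measured, and the share of all genes higher was not counted. This comparison and those over epithelial-like cells share cells, so their ratios are not independent of each other.

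The class levels average over cells that differ widely. Each cell was thinned to 5000 RNA UMIs, which left out 289 cardiomyocytes, 20 fibroblast-like cells and 68 epithelial-like cells, and the number of the 45 genes with a UMI was counted. The median was 3 genes in cardiomyocytes, 3 in fibroblast-like cells and 4 in epithelial-like cells, but the highest cells held 28, 24 and 33. At least 5 genes were found in 33.6% (32.4 to 34.9) of cardiomyocytes, 33.2% (29.4 to 37.1) of fibroblast-like cells and 45.7% (44.1 to 47.2) of epithelial-like cells, and in 82.0%, 85.6% and 89.4% of the unthinned cells of these classes. At least 10 genes were found in 15.7% (14.7 to 16.7) of cardiomyocytes, 13.2% (10.6 to 16.2) of fibroblast-like cells and 22.1% (20.8 to 23.4) of epithelial-like cells (36.3%, 41.3% and 52.2% unthinned). These cells, chosen for holding many members, held 56.6% of the member UMIs of the thinned cardiomyocytes, 48.5% of those of fibroblast-like cells and 64.1% of those of epithelial-like cells, which follows in part from how they were chosen. They were also deeper before thinning, with a median of 21530.0 UMIs in cardiomyocytes against 15947.5 in the remaining ones.

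**Figure D3:**
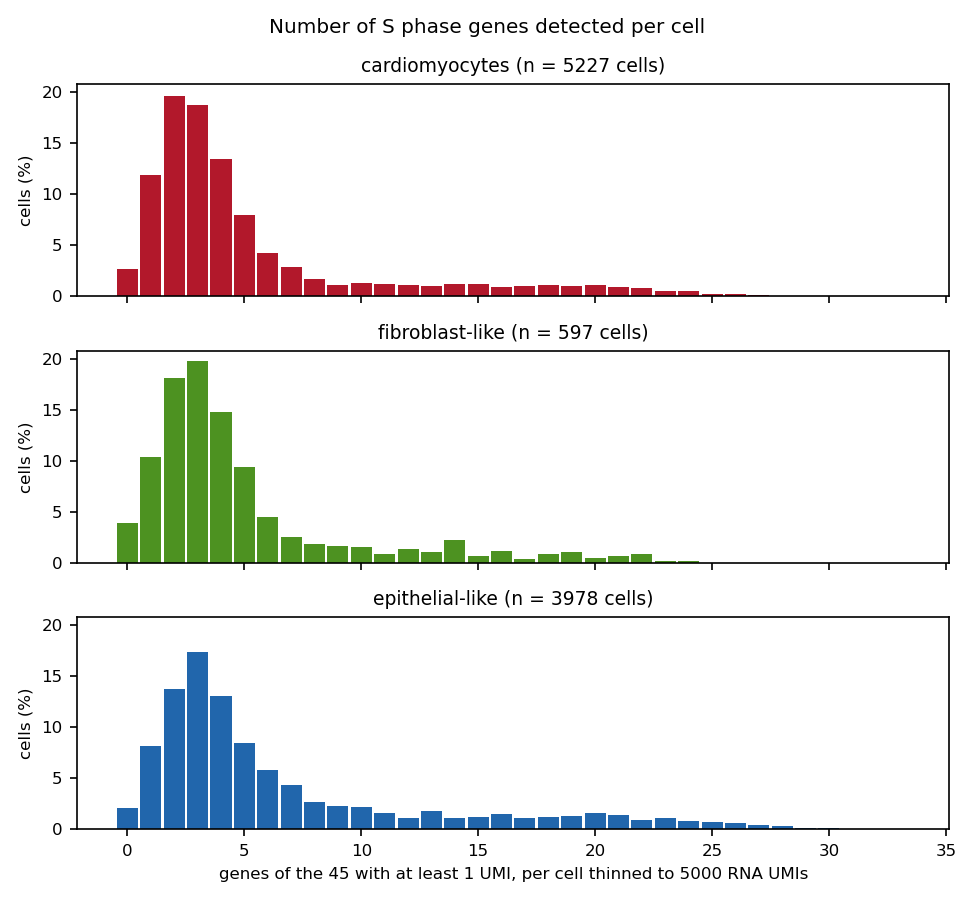
Share of cells (%) by the number of the 45 genes with a UMI after thinning to 5000 RNA UMIs, for each class. All 3 classes peak at 2 or 3 genes and carry a long flat tail beyond 10 genes, which is highest in epithelial-like cells.

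Genes differed in how far they were held by such cells. MCM10 was seen in 3.98% of thinned cardiomyocytes, 3.69% of fibroblast-like cells and 7.74% of epithelial-like cells (11.8%, 12.0% and 18.1% unthinned). Of its UMIs, 89.8% in cardiomyocytes and 91.1% in epithelial-like cells fell in cells with at least 10 of the other members. NASP was seen in 70.2% of thinned cardiomyocytes, 61.3% of fibroblast-like cells and 70.4% of epithelial-like cells, and 32.3% of its UMIs in cardiomyocytes and 43.4% in epithelial-like cells fell in cells with 10 other members. UNG was likewise spread, with 37.8% in cardiomyocytes and 43.7% in epithelial-like cells. Free RNA in droplets can set a floor under such shares. MYL7, an atrial myosin light chain gene at 12343 CPM in cardiomyocytes, had a UMI in 71.4% of thinned fibroblast-like cells and 70.3% of epithelial-like cells. Whether these UMIs came from free RNA was not tested. MYL7 stood at 278 CPM in fibroblast-like and 258 CPM in epithelial-like cells, and every member was far lower than MYL7 in cardiomyocytes. No class here is known to lack the S phase genes, so any floor under their own shares could not be measured.

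To follow the members through the cycle, thinned cells were put in ranges by their summed UMIs of MCM2 to MCM7 and of 15 G2/M genes such as TOP2A and CCNB1, with at least 4 UMIs called high and at most 1 called low. The ranges are parts of continuous measures and not cell types. MCM-high cells were 11.5% (10.7 to 12.4) of cardiomyocytes, 6.03% (4.26 to 8.25) of fibroblast-like cells and 12.8% (11.7 to 13.8) of epithelial-like cells. Cells high in MCM and low in G2/M genes were 3.94% (206 cells) of cardiomyocytes, 1.17% (7 cells) of fibroblast-like cells and 4.05% (161 cells) of epithelial-like cells. Cells high in both were 4.94% (4.36 to 5.56) of cardiomyocytes, 2.85% (1.67 to 4.52) of fibroblast-like cells and 6.06% (5.34 to 6.85) of epithelial-like cells. Cells low in MCM and high in G2/M genes were 8.82% (8.06 to 9.62), 8.38% (6.28 to 10.9) and 13.6% (12.5 to 14.7) of these classes. In the 2 MCM-high ranges the intervals of cardiomyocytes and epithelial-like cells overlapped, though by little in cells high in both. In the G2/M range they did not overlap. Overlap of intervals is not a test of a difference. In that G2/M range 22.1% of the cardiomyocytes were called doublets, against 8.06% of the cardiomyocytes low in both, and the part of doublets in its share was not tested.

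**Figure D4:**
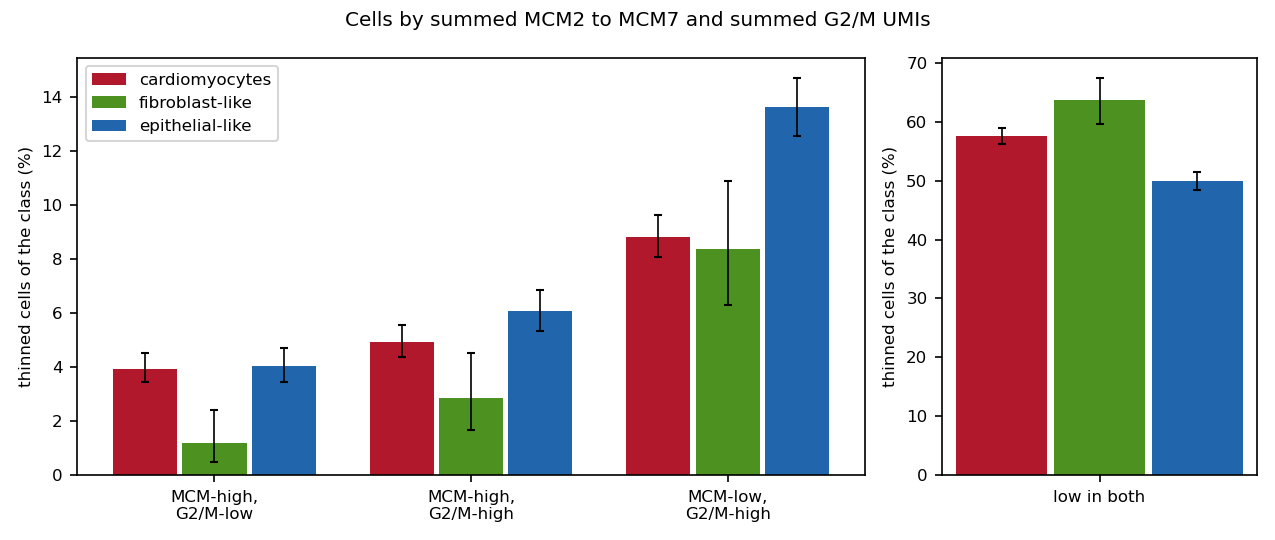
Share of thinned cells (%) of each class that were high (at least 4 UMIs) or low (at most 1 UMI) in summed MCM2 to MCM7 and in 15 summed G2/M genes (bars, with exact 95% counting intervals). Cardiomyocytes and epithelial-like cells are close in the MCM-high, G2/M-low range. Epithelial-like cells have the largest share high in both and the largest share that is MCM-low and G2/M-high.

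In cells high in MCM and low in G2/M genes, all 39 members outside MCM2 to MCM7 were at least 1.5-fold higher than in cells low in both, in cardiomyocytes and in epithelial-like cells. Of all genes measured 6.43% were higher in cardiomyocytes and 7.18% in epithelial-like cells. The median log2 ratio of the 39 was 3.36 (2.40 to 4.01) in cardiomyocytes and 2.93 (2.22 to 3.74) in epithelial-like cells. MCM10 was the highest in both, at 44.2 CPM in MCM-high and 0.962 CPM in low cardiomyocytes (45.9, 33.2 to 64.6), and at 48.3 and 1.39 CPM in the same ranges of epithelial-like cells (34.8, 24.9 to 49.5). DTL, a substrate receptor of a ubiquitin ligase that acts on PCNA-bound proteins, came next (40.9 in cardiomyocytes and 27.7 in epithelial-like cells), then FAM111B (30.8 and 26.9). In cardiomyocytes CLSPN and EXO1 (30.1 each) and CDC6 and CDC45 (28.9 each) followed. The lowest ratios in cardiomyocytes were those of UBR7 (1.74), E2F8 (2.11), SLBP (2.39), CASP8AP2 (2.52) and NASP (2.76). The MCM-high cells were deeper, with a median of 19606.5 UMIs against 15944 in the low cells of cardiomyocytes, and 20038 against 16672 in epithelial-like cells.

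Genes that were no members were ranked in the same comparison among 9348 genes with a mean of at least 10 CPM over the 3 classes. The 10 highest in cardiomyocytes were ASF1B, BRCA2, CENPK, WDR76, CDT1, CENPM, BRIP1, RMI2, BRCA1 and CHEK1, and those in epithelial-like cells BRCA1, ASF1B, WDR76, PKMYT1, BRIP1, TK1, NCAPG, BRCA2, FANCA and CENPK.

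The members parted once G2/M genes were also present. In cells high in both, the highest cardiomyocyte ratios over low cells were those of ESCO2 (141, 93.5 to 223), RRM2 (106) and EXO1 (92.2), and the highest epithelial-like ones those of RRM2 (101), ESCO2 (97.6) and FAM111B (80.9). All 39 members passed the limit in both classes, where 12.9% of all genes in cardiomyocytes and 11.8% in epithelial-like cells were higher. RRM2 stood at 12.2 CPM in cardiomyocytes high in MCM alone, 267 CPM in those high in both, 102 CPM in those high in G2/M alone and 2.53 CPM in those low in both. In epithelial-like cells the same ranges gave 23.2, 314, 107 and 3.11 CPM. Its level was thus greatest where both sets of genes were found.

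In cells low in MCM and high in G2/M genes, 31 of 39 members were higher in cardiomyocytes and 34 in epithelial-like cells, against 11.6% and 8.19% of all genes measured. The highest in cardiomyocytes were RRM2 (40.2), ESCO2 (37.3), RAD51AP1 (25.8) and TYMS (25.4). The highest in epithelial-like cells were ESCO2 (43.8), RRM2 (34.3), RAD51AP1 (27.4) and DSCC1 (17.8), with TYMS at 11.9. UNG was the 1 lower member in epithelial-like cells (0.579), where 6.45% of all genes were lower, and had a ratio of 0.774 in cardiomyocytes. In cardiomyocytes PCLAF (17.9) was about as high here as in cells high in MCM alone (17.4). Other members stood near the level of low cells: TIPIN (0.978 in cardiomyocytes and 1.03 in epithelial-like cells), CASP8AP2 (0.973 and 0.888) and SLBP (1.29 and 0.947). CDCA7, which was 10.9 times higher in MCM-high cardiomyocytes, had a ratio of 0.996 (0.618 to 1.54) in cardiomyocytes here, 2.10 (1.13 to 3.73) in fibroblast-like cells and 1.98 (1.38 to 2.83) in epithelial-like cells. The 50 fibroblast-like cells of this range had 35 of 39 members higher (11.9% of all genes measured), led by ESCO2 (45.3) and MCM10 (43.5, 15.3 to 170). It was the only range of that class high in MCM or G2/M genes with enough cells.

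**Figure D5:**
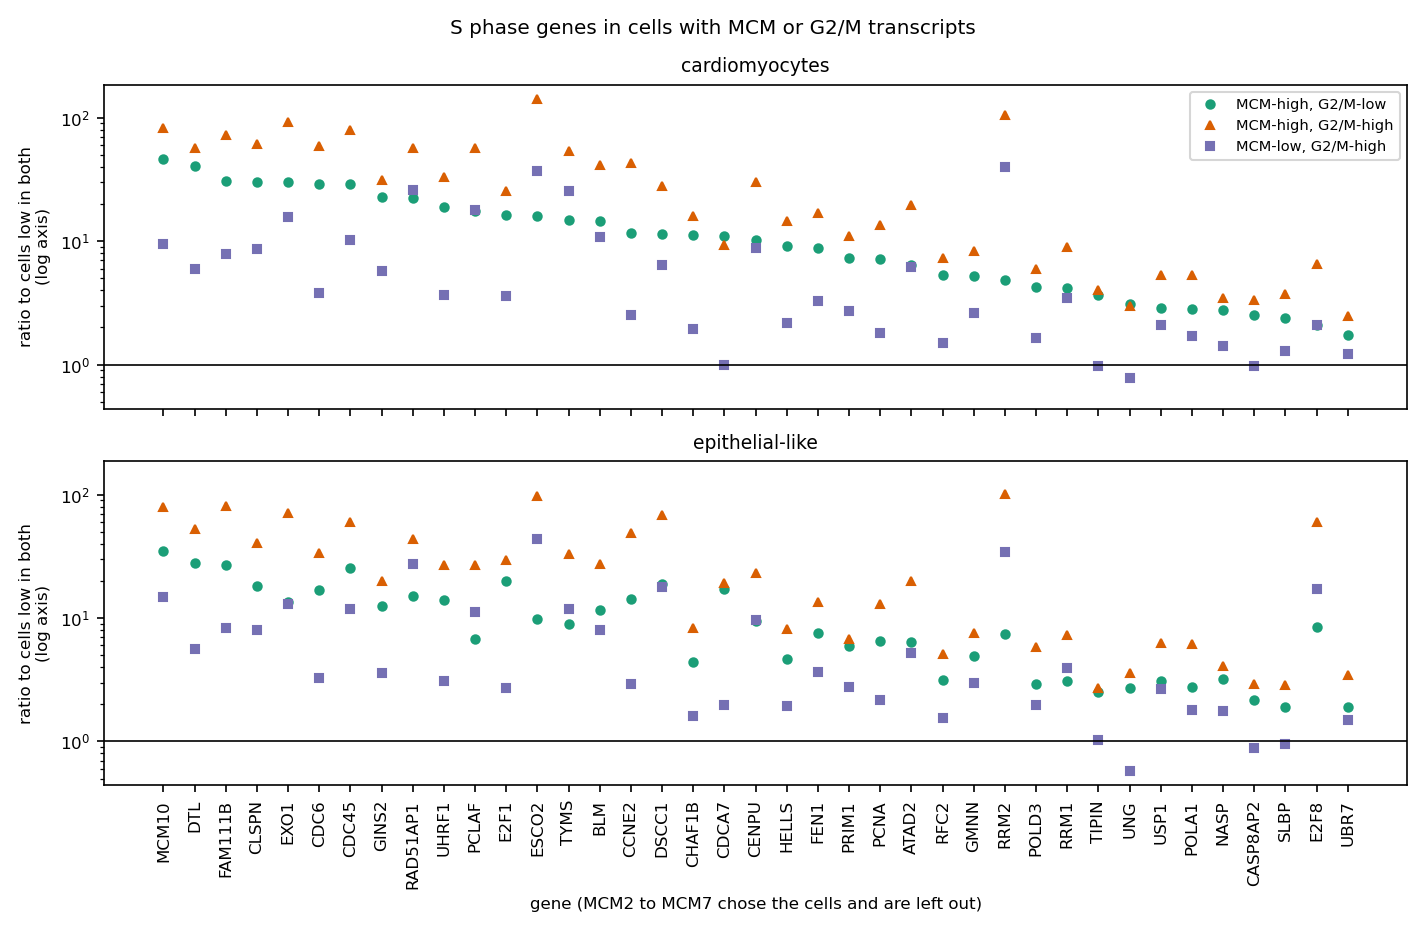
Ratio of 39 members to their level in cells low in both MCM and G2/M genes (log axis), in cells high in MCM alone (circles), in both (triangles) and in G2/M alone (squares), for cardiomyocytes and epithelial-like cells. Genes are ordered by the circles of cardiomyocytes, from MCM10 to UBR7. Squares of RRM2, ESCO2 and TYMS stand high, and squares of UNG, TIPIN, CASP8AP2 and CDCA7 lie near or under 1 in cardiomyocytes.

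Compared within ranges, more members were lower in cardiomyocytes than in epithelial-like cells among cells low in both gene sets than among MCM-high cells. In cells high in MCM and low in G2/M genes, 2 of 39 members (E2F8 and PCLAF) were higher in cardiomyocytes and 7 were lower, against 24.2% higher and 27.7% lower of all genes measured, with a median log2 ratio of −0.16 (−0.29 to 0.13). In cells high in both, 1 was higher and 9 lower, against 23.6% and 24.8%, with a median of −0.24 (−0.42 to −0.028). In cells low in both, 2 were higher (E2F8 and DSCC1) and 20 lower, against 21.9% and 28.1%, with a median of −0.60 (−0.81 to −0.24). SLBP, UNG, CENPU, FAM111B and CCNE2 were lower in each of the 3 ranges. SLBP stood at 60.4 CPM in MCM-high, G2/M-low cardiomyocytes and 134 CPM in such epithelial-like cells (0.452), and at 25.3 CPM in low cardiomyocytes and 70.4 CPM in low epithelial-like cells (0.359). UNG had ratios of 0.433 and 0.380 in these ranges, CENPU 0.475 and 0.440, FAM111B 0.616 and 0.540, and CCNE2 0.489 and 0.595. The floor on low values was set on whole-class levels, so calls within ranges can rest on few UMIs. In low cardiomyocytes CCNE2 stood at 0.702 CPM (35 UMIs) and DSCC1 at 1.54 CPM (77 UMIs). TYMS stood above 1 in MCM-high, G2/M-low cells (1.49) and in cells high in both (1.44).

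The ratio of E2F8 between cardiomyocytes and epithelial-like cells was highest in cells low in both gene sets, of the 3 ranges compared. In cells low in both MCM and G2/M genes it stood at 10.3 CPM in cardiomyocytes (513 UMIs), 0.859 CPM in fibroblast-like cells (6 UMIs) and 0.635 CPM in epithelial-like cells (21 UMIs), a ratio of 16.2 for cardiomyocytes over epithelial-like cells. Of its thinned UMIs, 42.2% in cardiomyocytes and 84.9% in epithelial-like cells fell in cells with at least 10 other members. In cells high in both it stood at 67.8 CPM in cardiomyocytes and 38.3 CPM in epithelial-like cells (1.77). Its relative E2F7 showed no such level, at 0.180 CPM in low cardiomyocytes (9 UMIs) and 0.302 CPM in low epithelial-like cells (10 UMIs). E2F8 (chr11:19224063-19241655, GRCh38.p14) lies beside CSRP3 (chr11:19182030-19201983), a gene of muscle cells, which stood at 574 CPM in cardiomyocytes, 15.5 CPM in fibroblast-like cells and 14.1 CPM in epithelial-like cells. When low cardiomyocytes were put in 4 groups of equal size by CSRP3 level, E2F8 stood at 7.66, 9.93, 12.1 and 11.6 CPM from the lowest group to the highest, with intervals of 6.21 to 9.34 in the lowest and 9.71 to 13.7 in the highest. CSRP3 stood at 103, 367, 714 and 1573 CPM in these groups. The part of the neighbouring gene in the E2F8 counts was not tested.

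CD34 protein is the subject of the series. Cardiomyocytes at or above the 75th percentile of antibody-tag UMIs (279) and those at or below the 25th (45) had no member past the limit, where 2.46% of all genes were higher and 3.52% lower. Ratios were above 1 for 39 of 45 members with a median log2 ratio of 0.15, led by RRM2, at 45.3 CPM in tag-high and 32.2 CPM in tag-low cardiomyocytes (1.41). Taken as tag UMIs per RNA UMI, 10 were above 1 and 35 under 1, with a median of −0.084, so the direction turned with the scale of the tag. Tag-high cells were also deeper, with a median of 17064.5 UMIs against 14292 in tag-low cells, and MCM-high cells were 11.5% and 11.6% of them. At least 10 members were found in 17.0% (15.01 to 19.0) of thinned tag-high and 13.9% (12.0 to 16.0) of thinned tag-low cardiomyocytes.

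Cardiomyocytes with a thinned UMI of TBX3, a T-box repressor that marks the sinoatrial node, had lower values of nearly every member, though none passed the limit (1.15% of all genes were higher and 2.85% lower) and 2 did once called doublets were removed. Of the 45 ratios 44 were under 1, with a median log2 ratio of −0.32 (−0.36 to −0.28). CDC45 stood at 6.32 CPM in cells with TBX3 and 9.45 CPM in cells without (0.669, 0.572 to 0.781), and CDC6 at 11.5 and 16.7 CPM (0.689), while NASP (0.984), E2F8 (0.965) and UBR7 (1.0) were near level. At least 10 members were found in 12.8% (11.4 to 14.2) of the 2320 thinned cells with TBX3 and 18.1% (16.7 to 19.5) of the 2907 without, and MCM-high cells were 9.61% and 13.0% of them. Cells with TBX3 had a median of 16090.0 UMIs and cells without 17044. Between the 425 cardiomyocytes with and the 4802 without NKX2-5, a factor of working heart muscle, the median log2 ratio was −0.040, 0 members were higher (2.20% of all genes) and 2 were lower (3.90% of all genes), CHAF1B (0.647) and CCNE2 (0.665). At least 10 members were found in 16.7% (13.3 to 20.6) of cells with NKX2-5 and 15.6% (14.6 to 16.7) of those without.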

How the data were processed

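RNA and CD34 antibody tags were counted in 1 culture. The authors deposited whole-number UMI counts per gene and barcode, made with Cell Ranger 6.1.2, per the file headers. The build GRCh38 is named in the submitters' processing notes. The annotation release and the settings of cell calling are not given in the sources used here.

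From these counts, barcodes with under 1000 genes (1975), over 25% mitochondrial UMIs (1207) or over 35000 RNA UMIs (908) were left out, 3618 of 14829 in all. Per-cell CPM used to draw the classes, and class sums scaled to CPM, used all RNA UMIs. Within 10% of the TNNT2 limits lay 172 cells (2000 CPM) and 165 cells (1000 CPM), and 421 cardiomyocytes held 5 or more UMIs of the 4 epithelial markers. Doublets were limited only by the upper UMI limit. Scrublet (in scanpy 1.11.5, score over 0.115) called 1401 of 12119 barcodes scored (11.6%), and their removal was an alternative.

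Levels carry exact Poisson intervals, ratios exact conditional binomial intervals, shares Clopper-Pearson intervals, and medians intervals from ranked members. Genes were measured at a mean of 5 CPM over the 3 classes. A member was counted as higher at a ratio of 1.5 or more and lower at its inverse. Thinning drew 5000 UMIs a cell without replacement with 1 fixed seed. A range with under 50 cells gave no ratio. The ratio and thinning steps were tested on simulated data. Python 3.11.15, numpy 2.4.6, scipy 1.17.1 and pandas 2.3.3 were used. The rule for named genes took all members, with the 5 highest and 5 lowest ratios and the 5 highest levels of a class comparison in full, and the 10 highest other genes in MCM-high cells. LIG1, CCNE1, CCND1, CDKN1C, CDKN2B, TPM1, LUM, E2F7 and CSRP3 were named after their values were seen. The members and lists were chosen with earlier results of these data known.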

Additional observations from a re-analysis of the deposited data

Results flagged for a closer look

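Members were also counted in barcodes that no comparison used. In the 1032 kept cells that met no class rule they summed to 1770 CPM (1749 to 1792), where a count of 0 would allow up to 0.211 CPM. In these cells the median depth was 12400.5 UMIs and 14.6% were called doublets. In the barcodes left out for under 1000 genes the members summed to 1530.5 CPM (1482 to 1580), where a count of 0 would allow up to 1.2 CPM.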

How the results depend on the processing

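All values rest on 1 culture, and no interval covers variation between cultures. No paired analysis was possible because 1 culture gives no replicate numbers and no test was run. E2F8 remained the 1 member higher in cardiomyocytes than in epithelial-like cells under 9 alternatives, and a floor of 20 CPM, which E2F8 does not reach, left 0. In the 3 class comparisons, 942 single ratios of members were recomputed under alternatives that can change a ratio. Of these, 734 stayed within their counting interval, 208 moved and 0 were labelled reversed. Only ratios past the 1.5-fold limit in the main setting could be labelled reversed. A ratio between the limits that crossed 1 was not counted as such. Shares of all genes past a limit were counted in the main setting only, so counts of members under alternatives stand without them. The floor of 20 CPM left 27 of the 45 members measured. For cardiomyocytes over epithelial-like cells 9 of these 27 were lower, and a 2-fold limit left 7 of 45 lower. Median-of-ratios scaling left 15 lower there, dropping the upper UMI limit 16 and stricter class limits 25. For fibroblast-like over epithelial-like cells the floor of 20 CPM left 13 of 27 lower and the 2-fold limit 4 of 45. Dropping the upper UMI limit left 11 lower there with a median log2 ratio of −0.36. For cardiomyocytes over fibroblast-like cells median-of-ratios scaling gave 7 higher with a median of 0.34, and totals without mitochondrial UMIs 7 higher with a median of 0.29, where all genes moved by 0.15 and 0.11. Stricter class limits gave 5 lower there, the floor of 20 CPM 1 of 27 lower, and the 2-fold limit 1 higher and 1 lower.

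The share of cardiomyocytes with at least 5 members was 31.9% without called doublets, 36.6% without the upper UMI limit and 30.3% with stricter class limits. Cardiomyocytes, fibroblast-like and epithelial-like cells gave 21.2%, 19.6% and 31.1% when thinned to 3000 UMIs, 55.2%, 54.6% and 67.0% at 8000, and 82.0%, 85.6% and 89.4% unthinned. At least 3 members were found in 65.8%, 67.7% and 76.1%, 8 in 18.6%, 16.8% and 27.05%, 10 in 15.7%, 13.2% and 22.1%, and 15 in 9.85%, 6.37% and 14.4%. MCM-high shares were 16.7%, 9.72% and 19.0% at 3 UMIs and 6.39%, 3.18% and 5.66% at 6, where the order of cardiomyocytes and epithelial-like cells turned. Tag UMIs per RNA UMI gave 1 lower member and a median of −0.084 for CD34, and removal of called doublets 2 lower with TBX3. The causes were not tested. The counts of 10 and 15 members and the totals without mitochondrial UMIs were chosen after seeing the data. Depth limits members under 10 CPM, of which cardiomyocytes hold 9, fibroblast-like cells 8 and epithelial-like cells 3.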
